A study of Arabidopsis thaliana with 12 samples.

Results

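The gene set comprised 49 loci of Arabidopsis thaliana from 3 families of cell wall proteins, out of 33602 loci in the deposited count table. Members were taken by locus code and not by a cutoff on measured values, but they were chosen with earlier results of these data known. They are 15 expansins of the EXPA and EXPB groups, 24 xyloglucan endotransglucosylase/hydrolases (XTH) and 10 fasciclin-like arabinogalactan proteins (FLA). A RefSeq gene table listed all 49 loci under the family names used here. Of these, 44 had enough counts to be tested, namely 14 expansins, 20 XTH genes and all 10 FLA genes.

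Expansins loosen plant walls by breaking the weak contacts between cellulose and the polysaccharides around it, without cutting a chain. XTH enzymes act on xyloglucan, the polymer that coats and links cellulose microfibrils: they cut its backbone and rejoin the end to another chain, and a few of them hydrolyse it instead. FLA proteins are cell surface glycoproteins with fasciclin domains, many of them held at the plasma membrane by a lipid anchor, and are known for roles in wall assembly. All of these families are known for activity in expanding leaves, and some XTH genes are known for fast transcriptional responses to touch and other stimuli.

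The series measured messenger RNA in leaves of 2 lines in the Columbia-0 background, each in 2 conditions and with 3 libraries per group: cat2-2 gox2 after high light, cat2-2 gox2 under high CO2, cat2-2 gox1 after high light and cat2-2 gox1 under high CO2. Both lines carry cat2-2, a mutation in the gene of the main leaf catalase, which removes hydrogen peroxide in peroxisomes, and each carries a mutation in GOX2 or GOX1, which encode glycolate oxidases, the photorespiratory enzymes that make that peroxide. Plants were raised at 3000 ppm CO2, which holds photorespiration low, under an irradiance of 120 in the labels' micromole units. At 3 weeks of age the high-light groups spent 3 h in another chamber at 400 ppm CO2 and an irradiance of 1200. Light, CO2, humidity and chamber therefore changed together, and their parts in any difference cannot be told apart. The labels mark the high-CO2 libraries as 0 h and the high-light libraries as 3 h, so the time of sampling may have differed as well. Plants with wild-type CAT2, or with cat2-2 alone, were not analysed here. A library held the pooled leaves of 15 plants, and the labels describe the replicates as repeats of the whole experiment. In such bulk tissue, fewer cells of a type and less RNA per cell cannot be told apart.

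Total counts were 19571516 to 25314811 per library, and levels are given as CPM, each gene's count set against the scaled total of its library. The mutated genes were read in every library first. GOX2 stood at 7.48, 122 and 6.98 CPM after high light in cat2-2 gox2 and 16.5, 16.8 and 16.8 CPM in that line's high-CO2 libraries, whereas in cat2-2 gox1 it was at 570.5, 653 and 451 CPM after high light and at 1199, 1179 and 932 CPM under high CO2. The library labelled cat2-2 gox2 high light replicate 2 thus stood apart from the other 5 of its line, though it stayed below every cat2-2 gox1 library. GOX1 was at 943 to 2197 CPM in the cat2-2 gox2 libraries and at 127.6 to 284 CPM in the cat2-2 gox1 libraries. The library labelled cat2-2 gox2 high light replicate 2 also held the highest level of its group for 36 of the 44 tested members, against 33.8% of all genes tested, so light responses of cat2-2 gox2 that moved by over 1.5 times or changed their call without it are given both ways. Under high CO2, replicate 3 held the lowest level for 33 of 44 members in cat2-2 gox2 and for 36 of 44 in cat2-2 gox1, against 44.1% and 43.5% of all genes.

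Leaf identity was checked with marker genes. The 5 leaf mesophyll markers, RBCS1A, LHCB1.1, LHCB1.3, CA1 and RCA, summed to 27478 to 37117 CPM in cat2-2 gox2 after high light against 50676 to 81915 CPM under high CO2, and to 19473 to 34266 CPM in cat2-2 gox1 after high light against 45519 to 69804 CPM under high CO2. The root markers COBL9, PRP3 and CASP1 had 4, 1 and 1 counts over all 12 libraries.

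Both lines showed the same broad division of the families after high light. Expansin and FLA transcripts were mostly lower after high light than under high CO2, whereas the XTH family split into members that fell and members that rose. In cat2-2 gox2, 27 of the 44 tested members fell and 5 rose, where 29.2% of all 18967 genes tested fell and 27.7% rose, at an adjusted p under 0.05 in edgeR's quasi-likelihood test. In cat2-2 gox1, 28 members fell and 7 rose, where 26.5% of all genes fell and 25.6% rose. The 5 members that rose in cat2-2 gox2 all belonged to the XTH family, as did 6 of the 7 in cat2-2 gox1. No expansin and no FLA gene rose in cat2-2 gox2, and in cat2-2 gox1 the expansin EXPA10 did. From repeats 1 and 2 alone, EXPA10 and EXPA16 also rose in cat2-2 gox2. The counts above are from the fit without the replicate number. With that number as a block, EXPA16 and XTH27 also rose in cat2-2 gox2, and XTH4 and FLA2 also fell there. In cat2-2 gox1, EXPA8, XTH4 and XTH19 also fell with the block. The block called 11790 of 18967 genes in cat2-2 gox2 and 11102 in cat2-2 gox1, against 10793 and 9880 without it.

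By family, 11 of 14 expansins fell in cat2-2 gox2 and 10 of 14 in cat2-2 gox1, with median log2 fold changes of -1.59 and -1.81. Among the FLA genes, 8 of 10 fell in cat2-2 gox2 and 9 of 10 in cat2-2 gox1, with medians of -1.41 and -1.54. The XTH genes divided into 8 that fell and 5 that rose of 20 in cat2-2 gox2, and 9 that fell and 6 that rose in cat2-2 gox1, with medians of -0.73 and -0.95. The median over all genes tested was -0.09 in cat2-2 gox2 and -0.06 in cat2-2 gox1. Without the library labelled cat2-2 gox2 high light replicate 2, 28 members fell and 5 rose in cat2-2 gox2. Repeats 1 and 2 alone gave 28 members that fell and 7 that rose in cat2-2 gox2, and 30 and 7 in cat2-2 gox1. Of all genes, 10153 of 19152 were called in either direction in cat2-2 gox2 without that library. From repeats 1 and 2, 11015 of 18971 were called in cat2-2 gox2 and 10547 in cat2-2 gox1.

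**Figure D1:**
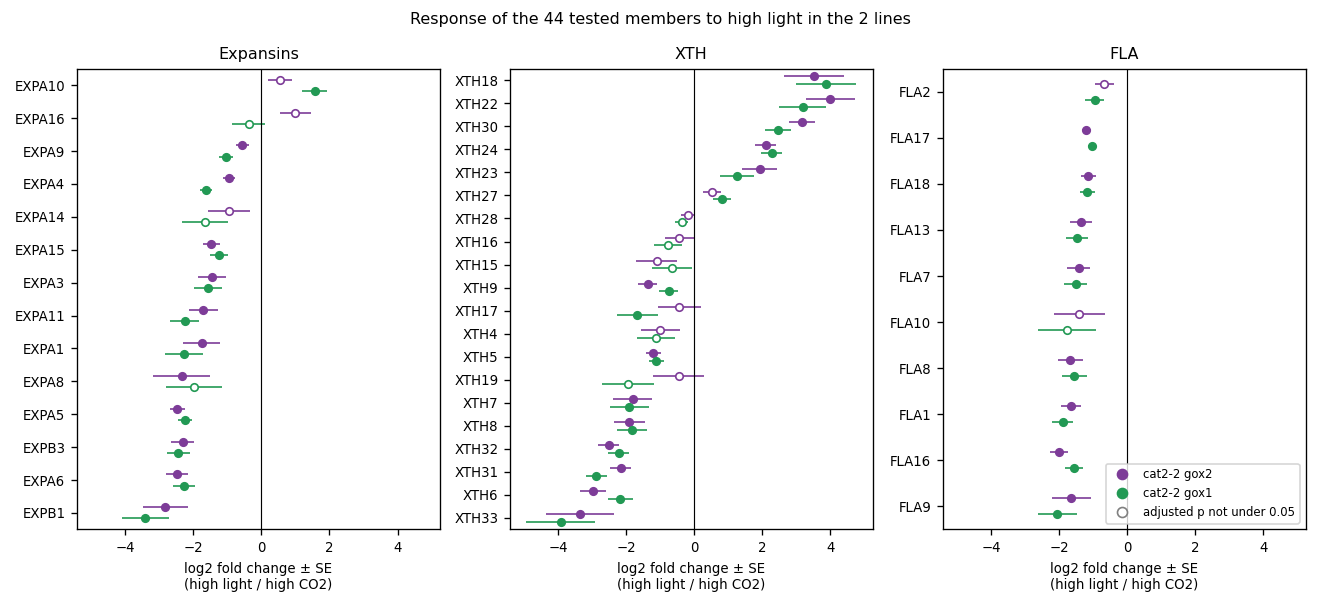
Log2 fold change (high light over high CO2) of each of the 44 tested members in cat2-2 gox2 (purple) and cat2-2 gox1 (green), by family, with bars of 1 SE and open circles where the adjusted p was not under 0.05. FLA values all lie left of 0, expansin values lie left of 0 apart from those of EXPA10 and the cat2-2 gox2 value of EXPA16, and XTH values run from -3.37 to 4.0 in cat2-2 gox2 and from -3.93 to 3.88 in cat2-2 gox1.

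A few calls are for scarce members that cleared the filter on counts mainly in 1 condition. These calls are the falls of XTH33 in both lines and XTH17 in cat2-2 gox1, and the rises of XTH18 in both lines. Of the 44 tested members, 37 reached 0.471 CPM, the level that 10 counts give in a library of median size, in all 12 libraries. EXPA14, XTH15, XTH17, XTH33 and FLA10 reached it in fewer than 3 high-light libraries, and XTH18 in fewer than 3 high-CO2 libraries. These members entered the test through the condition in which they were higher. The 5 members left out had 8 counts over all libraries for EXPA2, 2 for XTH14, 9 for XTH20, 0 for XTH21 and 86 for XTH25.

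Summed over its 15 genes, the expansin family was at 172, 294 and 173 CPM in cat2-2 gox2 after high light, against 563, 773 and 371 CPM under high CO2. In cat2-2 gox1 the sums were 273, 232 and 162 CPM after high light, against 698, 644 and 385 CPM under high CO2. No high-light library overlapped a high-CO2 library of its line, and the high-light mean was 37.4% of the high-CO2 mean in cat2-2 gox2 and 38.6% in cat2-2 gox1. The FLA family gave a like picture, with means of 237 ± 54.1 CPM in cat2-2 gox2 after high light against 566 ± 138 CPM under high CO2, and of 207 ± 34.7 CPM in cat2-2 gox1 after high light against 528 ± 169.5 CPM under high CO2 (SD, n = 3 each). Those high-light means were 41.9% and 39.2% of the high-CO2 means.

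The XTH family kept most of its summed level. It averaged 633 ± 70.8 CPM in cat2-2 gox2 after high light against 788 ± 159 CPM under high CO2, and 724 ± 194 CPM in cat2-2 gox1 after high light against 811 ± 268 CPM under high CO2 (SD, n = 3 each). In both lines the libraries of the 2 conditions overlapped. In cat2-2 gox1 the sign of the difference rested on 1 library: without cat2-2 gox1 high CO2 replicate 2, the log2 ratio of the means was 0.07 in place of -0.16. XTH24 alone made up 44.7% of the family's sum in cat2-2 gox2 after high light against 8.38% under high CO2, and 52.3% in cat2-2 gox1 after high light against 9.61% under high CO2. When XTH24 was left out, a step chosen after its values were seen, the other XTH genes averaged 350.2 ± 101 CPM in cat2-2 gox2 after high light against 722 ± 180.3 CPM under high CO2. The same sum in cat2-2 gox1 averaged 345 ± 68 CPM after high light against 733 ± 282 CPM under high CO2.

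**Figure D2:**
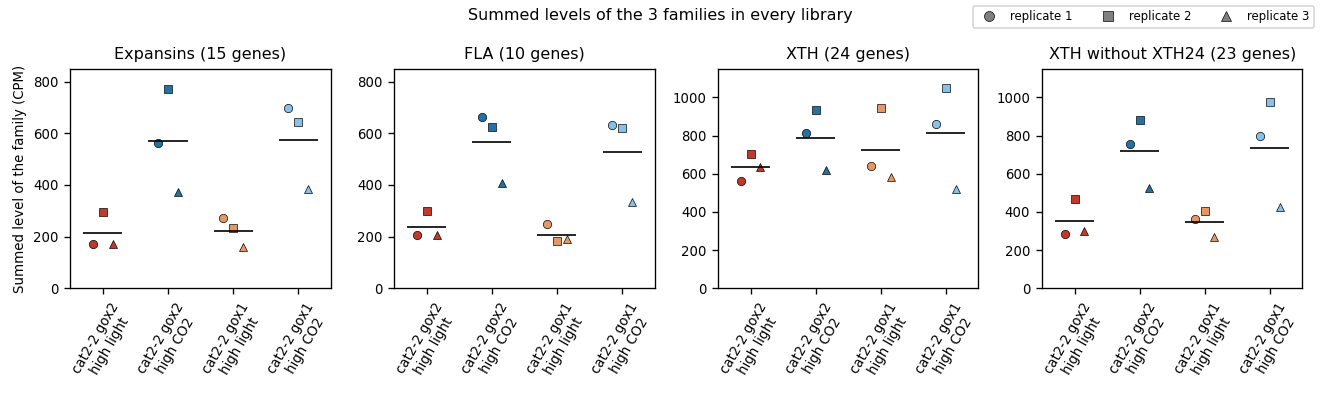
Summed CPM of each family in every library, with the XTH family also shown without XTH24; symbols give the replicate number and lines the group mean. Expansin sums after high light (161.5 to 294 CPM) lie below those under high CO2 (371 to 773 CPM) in both lines, while XTH sums of the 2 conditions overlap and those without XTH24 do not, in either line.

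Per kilobase of exon, the order of the members changed with the condition. Under high CO2, XTH7 at 140 and EXPA1 at 130 CPM per kilobase led in cat2-2 gox2, and the same genes led in cat2-2 gox1 at 152 and 151. After high light XTH24 led, at 234 CPM per kilobase in cat2-2 gox2 and 313 in cat2-2 gox1, followed by XTH27 at 54.2 and 71.7. XTH7 and EXPA1 varied by several-fold among the high-CO2 libraries, so their order there does not stand beyond the spread between replicates.

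EXPA1 (AT1G69530), an expansin known from guard cells, where it takes part in stomatal opening, was the most abundant expansin per kilobase under high CO2. After high light it averaged 38.4 CPM per kilobase in cat2-2 gox2 and 31.1 in cat2-2 gox1, beside 35.2 and 62.2 for EXPA10. Its level was 45.6, 87.5 and 45.2 CPM in cat2-2 gox2 after high light, against 196, 320.3 and 87.5 CPM under high CO2. In the other line it was 54.8, 68.2 and 21.4 CPM in cat2-2 gox1 after high light, against 308, 265 and 129.7 CPM under high CO2. The groups did not overlap in cat2-2 gox1, whereas in cat2-2 gox2 the highest high-light library, replicate 2, matched the lowest high-CO2 library, replicate 3. EXPA1 fell in both lines, with log2 fold changes of -1.76 ± 0.54 (SE, adjusted p = 0.0158) in cat2-2 gox2 and -2.28 ± 0.55 (SE, adjusted p = 0.00487) in cat2-2 gox1. The cat2-2 gox2 call was lost without high CO2 replicate 2 at -1.25 (adjusted p = 0.0757), without high light replicate 1 at -1.60 (adjusted p = 0.0613) and without high light replicate 3 at -1.59 (adjusted p = 0.0611).

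EXPA5 (AT3G29030) and EXPA6 (AT2G28950), a pair of alpha-expansins, fell in both lines. EXPA5 was at 11.2, 13.3 and 13.8 CPM in cat2-2 gox2 after high light, against 70.6, 86.9 and 54.8 CPM under high CO2. It was at 16.3, 10.8 and 15.4 CPM in cat2-2 gox1 after high light, against 75.5, 72.3 and 54.8 CPM under high CO2. Every high-light library lay below every high-CO2 library by a wide margin, with log2 fold changes of -2.47 ± 0.21 (SE, adjusted p = 3.05e-06) in cat2-2 gox2 and -2.25 ± 0.21 (SE, adjusted p = 8.85e-06) in cat2-2 gox1. EXPA6 was at 10.3, 20.4 and 13.7 CPM in cat2-2 gox2 after high light, against 91.6, 106 and 49.1 CPM under high CO2. In cat2-2 gox1 it was at 17.8, 13.8 and 14.03 CPM after high light and 86.2, 84.9 and 50.5 CPM under high CO2. Its groups did not overlap in either line, and the log2 fold changes were -2.48 ± 0.33 (SE, adjusted p = 8.64e-05) in cat2-2 gox2 and -2.28 ± 0.33 (SE, adjusted p = 0.000196) in cat2-2 gox1.

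Both beta-expansins of the set fell. EXPB1 (AT2G20750) was at 0.512, 2.11 and 0.893 CPM in cat2-2 gox2 after high light, against 11.6, 11.2 and 2.21 CPM under high CO2. The cat2-2 gox1 libraries gave 1.25, 0.691 and 0.505 CPM after high light and 11.1, 10.5 and 4.64 CPM under high CO2. Replicate 3 was low under high CO2 in both lines, and in cat2-2 gox2 it lay only just above the highest high-light library. Its log2 fold changes, -2.83 ± 0.66 (SE, adjusted p = 0.00372) in cat2-2 gox2 and -3.41 ± 0.69 (SE, adjusted p = 0.00174) in cat2-2 gox1, were the largest falls of the family. Without the library labelled cat2-2 gox2 high light replicate 2 the cat2-2 gox2 value was -3.53 (adjusted p = 0.00352). EXPB3 (AT4G28250) was at 4.92, 5.46 and 5.72 CPM in cat2-2 gox2 after high light, against 19.8, 29.9 and 30 CPM under high CO2. It was at 6.27, 1.98 and 4.59 CPM in cat2-2 gox1 after high light, against 23.03, 17.3 and 29.5 CPM under high CO2. Here replicate 3 was not the lowest under high CO2 in either line, and the groups were well apart, with log2 fold changes of -2.31 ± 0.34 (SE, adjusted p = 0.000173) in cat2-2 gox2 and -2.44 ± 0.35 (SE, adjusted p = 0.000166) in cat2-2 gox1.

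EXPA10 (AT1G26770), an alpha-expansin known from work on Arabidopsis leaf and petiole growth, went against its family. It was at 42.3, 77.9 and 45.6 CPM in cat2-2 gox2 after high light, against 39.1, 38.6 and 36.3 CPM under high CO2. In the other line it was at 124, 94.6 and 74.5 CPM in cat2-2 gox1 after high light, against 42.3, 41.5 and 14.8 CPM under high CO2. All high-light libraries lay above all high-CO2 libraries of their line. EXPA10 rose in cat2-2 gox1, with a log2 fold change of 1.57 ± 0.37 (SE, adjusted p = 0.0041), and did not pass the test in cat2-2 gox2, at 0.54 ± 0.36 (SE, adjusted p = 0.219). The cat2-2 gox2 value was 0.21 (adjusted p = 0.651) without the library labelled high light replicate 2 and 0.74 (adjusted p = 0.0441) from repeats 1 and 2, the last of which passed. The difference between these light responses, cat2-2 gox2 minus cat2-2 gox1, was -1.03 ± 0.51 (SE, adjusted p = 0.542) and did not pass the test.

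EXPA16 (AT3G55500) had no call in either light comparison, at 0.99 ± 0.46 (SE, adjusted p = 0.0831) in cat2-2 gox2 and -0.38 ± 0.47 (SE, adjusted p = 0.525) in cat2-2 gox1. With the replicate number as a block its cat2-2 gox2 value became 0.94 (adjusted p = 0.0482), and from repeats 1 and 2 it was 1.51 (adjusted p = 0.0163). Without the library labelled cat2-2 gox2 high light replicate 2 it was 0.67 (adjusted p = 0.271). EXPA8 (AT2G40610) fell in cat2-2 gox2, at -2.34 ± 0.84 (SE, adjusted p = 0.0337), and was at -1.97 ± 0.82 (SE, adjusted p = 0.0643) in cat2-2 gox1, where the block gave -2.02 (adjusted p = 0.00212) and repeats 1 and 2 gave -1.91 (adjusted p = 0.0269). Its cat2-2 gox2 call was lost without high CO2 replicate 1 at -2.32 (adjusted p = 0.0627) or replicate 2 at -1.69 (adjusted p = 0.133), and without high light replicate 1 at -1.94 (adjusted p = 0.11) or replicate 3 at -2.03 (adjusted p = 0.112), and without the library labelled high light replicate 2 it was -3.49 (adjusted p = 0.0103). EXPA3, EXPA11 and EXPA15 fell in both lines, by log2 fold changes between -1.24 and -2.26, and EXPA14 passed the test in neither, at -0.96 ± 0.62 (SE, adjusted p = 0.203) in cat2-2 gox2 and -1.65 ± 0.68 (SE, adjusted p = 0.0612) in cat2-2 gox1. Its cat2-2 gox2 value was -1.60 (adjusted p = 0.0778) without the library labelled high light replicate 2 and -0.31 (adjusted p = 0.722) from repeats 1 and 2.

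The XTH genes that rose in both lines were XTH18, XTH22, XTH23, XTH24 and XTH30. The promoters of XTH18, XTH22, XTH23 and XTH30 are shown because these members rose in both lines, whereas most tested members fell. Each line gives the 250 bases before the annotated gene start in the RefSeq assembly TAIR10.1, on the strand of the gene and 5′ to 3′, with capitals marking TTGAC on either strand, the core of the W-box, the motif that WRKY factors are known to bind. The windows are chr4:14827212-14827461 on the minus strand for XTH18, chr5:23308681-23308930 on the minus strand for XTH22, chr4:13128144-13128393 on the plus strand for XTH23 and chr1:11575070-11575319 on the plus strand for XTH30.
XTH18: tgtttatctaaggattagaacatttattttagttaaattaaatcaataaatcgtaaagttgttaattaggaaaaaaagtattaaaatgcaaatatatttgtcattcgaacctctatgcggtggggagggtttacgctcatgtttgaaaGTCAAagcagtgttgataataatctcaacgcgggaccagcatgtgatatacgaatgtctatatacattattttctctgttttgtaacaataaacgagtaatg
XTH22: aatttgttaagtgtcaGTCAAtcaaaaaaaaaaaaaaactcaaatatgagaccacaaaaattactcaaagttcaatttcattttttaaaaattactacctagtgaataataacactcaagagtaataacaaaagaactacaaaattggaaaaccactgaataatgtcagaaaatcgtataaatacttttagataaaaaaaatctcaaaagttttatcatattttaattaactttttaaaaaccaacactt
XTH23: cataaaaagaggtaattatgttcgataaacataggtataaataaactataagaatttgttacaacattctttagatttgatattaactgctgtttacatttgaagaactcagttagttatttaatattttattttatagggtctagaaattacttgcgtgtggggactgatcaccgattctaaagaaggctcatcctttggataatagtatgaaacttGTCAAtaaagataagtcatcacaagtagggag
XTH30: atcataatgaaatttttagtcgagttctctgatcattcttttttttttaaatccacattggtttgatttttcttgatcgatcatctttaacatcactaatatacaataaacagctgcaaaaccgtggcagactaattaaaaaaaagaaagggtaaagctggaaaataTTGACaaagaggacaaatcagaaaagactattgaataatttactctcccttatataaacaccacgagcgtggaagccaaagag
The windows of XTH18, XTH22 and XTH23 hold TTGAC on the reverse strand and that of XTH30 on the forward strand. Over 27442 promoters of this length, 44.9% hold TTGAC. Promoters were searched for 48 members. Of the 6 searched that rose in a line, 4 hold TTGAC, as do 11 of the 29 that fell. GAANNTTC, the paired unit of heat shock elements, was in 0 of those 6 windows and 5 of those 29, against 9.55% of the 27442 promoters. CACGTG, the G-box, was in 0 of the 48 windows, against 6.49% of the 27442 promoters. All 3 motifs were searched on both strands, and in 0 members did a GAANNTTC match overlap a TTGAC match.

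XTH24 (AT4G30270), also known as MERI5, was the most abundant member after high light. It was at 277, 236 and 336 CPM in cat2-2 gox2 after high light, against 56.6, 50.5 and 90.8 CPM under high CO2. It was at 279.6, 543 and 315 CPM in cat2-2 gox1 after high light, against 59.5, 76.7 and 97.7 CPM under high CO2. The lowest high-light library lay far above the highest high-CO2 library in both lines, and replicate 2 of cat2-2 gox1 was the highest of all. The log2 fold changes were 2.1 ± 0.31 (SE, adjusted p = 0.000163) in cat2-2 gox2 and 2.28 ± 0.31 (SE, adjusted p = 0.000126) in cat2-2 gox1.

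XTH22 (AT5G57560), the touch-induced gene TCH4, showed the largest rise of the set in cat2-2 gox2. Its level was 30.5, 91.7 and 34.3 CPM in cat2-2 gox2 after high light, against 5.1, 2.56 and 2.11 CPM under high CO2. The cat2-2 gox1 libraries were at 23.5, 43.1 and 14.1 CPM after high light and at 2.54, 5.68 and 0.754 CPM under high CO2. No libraries of the 2 conditions overlapped, and the library labelled cat2-2 gox2 high light replicate 2 was the highest. The log2 fold change was 4.0 ± 0.71 (SE, adjusted p = 0.000624) in cat2-2 gox2 and 3.18 ± 0.70 (SE, adjusted p = 0.00287) in cat2-2 gox1. It was 3.32 (adjusted p = 0.00204) in cat2-2 gox2 without that library, where XTH18 was at 3.3 (adjusted p = 0.0153), and 4.07 (adjusted p = 0.00223) in cat2-2 gox1 without high CO2 replicate 2.

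XTH30 and XTH18 were scarce under high CO2 and rose after high light. XTH30 (AT1G32170) was at 19.6, 17.8 and 14.7 CPM in cat2-2 gox2 after high light, against 1.998, 2.21 and 1.57 CPM under high CO2. The cat2-2 gox1 libraries were at 9.93, 12.03 and 3.33 CPM after high light and 1.5, 1.66 and 1.43 CPM under high CO2. Groups were apart in both lines, although replicate 3 of cat2-2 gox1 after high light was well below the other two, and the log2 fold changes were 3.17 ± 0.39 (SE, adjusted p = 4.38e-05) in cat2-2 gox2 and 2.46 ± 0.39 (SE, adjusted p = 0.000369) in cat2-2 gox1. XTH18 (AT4G30280), a gene known mainly from roots, was at 4.56, 5.65 and 2.84 CPM in cat2-2 gox2 after high light, against 0.526, 0.393 and 0.196 CPM under high CO2. Its cat2-2 gox1 levels were 2.32, 11.8 and 1.01 CPM after high light and 0.31, 0.554 and 0.159 CPM under high CO2. Its groups did not overlap either, its high-CO2 groups rested on 22 counts each, and its log2 fold changes were 3.53 ± 0.88 (SE, adjusted p = 0.00526) in cat2-2 gox2 and 3.88 ± 0.88 (SE, adjusted p = 0.00348) in cat2-2 gox1. The cat2-2 gox1 value was 2.29 (adjusted p = 0.00805) without high light replicate 2. XTH18 and its neighbour XTH19 share 1.57% of the 50-base words of XTH18, so few of its reads could be placed on either gene.

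XTH23 (AT4G25810) was at most at 3.36 CPM in any library and rose by 1.92 ± 0.52 (SE, adjusted p = 0.00878) on the log2 scale in cat2-2 gox2 and by 1.26 ± 0.49 (SE, adjusted p = 0.0498) in cat2-2 gox1. The second of these values lies at the edge of the threshold, and its groups overlapped. That call was lost when any 1 of the 12 libraries was left out other than cat2-2 gox1 high CO2 replicate 2 or cat2-2 gox1 high light replicate 3, with log2 fold changes of 0.78 to 1.26 and adjusted p-values of 0.0516 to 0.226. XTH27 (AT2G01850), known from the veins of Arabidopsis leaves, rose in cat2-2 gox1 at 0.81 ± 0.26 (SE, adjusted p = 0.023), and was at 0.53 ± 0.26 (SE, adjusted p = 0.103) in cat2-2 gox2, where the replicate block gave 0.58 (adjusted p = 0.045). The cat2-2 gox1 call for XTH27 was lost without high CO2 replicate 1 at 0.85 (adjusted p = 0.0505) and without high light replicate 2 at 0.77 (adjusted p = 0.0632).

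The XTH genes that rose include close neighbours on the chromosomes. XTH24, XTH18 and XTH19 lie in this order on chromosome 4, on 1 strand and with 0 protein-coding genes between them, 5161 and 1500 bases apart. XTH24 and XTH18 rose in both lines, and XTH19 did not. XTH19 was at -0.46 ± 0.74 (SE, adjusted p = 0.615) in cat2-2 gox2 and -1.95 ± 0.76 (SE, adjusted p = 0.0505) in cat2-2 gox1, where the block gave -1.98 (adjusted p = 0.00972). XTH22 lies 565 bases from XTH25, which had 86 counts in all, and XTH23 lies 363 bases from XTH14, which had 2.

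Among the XTH genes that fell, XTH6, XTH31 and XTH32 combined a high level under high CO2 with a marked fall. XTH6 (AT5G65730) was at 13.1, 23.6 and 9.66 CPM in cat2-2 gox2 after high light, against 131, 138 and 93.7 CPM under high CO2. It was at 27.1, 33 and 17.9 CPM in cat2-2 gox1 after high light, against 141, 138 and 73.2 CPM under high CO2. Its log2 fold changes were -2.97 ± 0.38 (SE, adjusted p = 5.65e-05) in cat2-2 gox2 and -2.18 ± 0.36 (SE, adjusted p = 0.000523) in cat2-2 gox1, with no overlap of the groups. XTH31 (AT3G44990), whose protein is known to hydrolyse xyloglucan, was at 21.98, 36.4 and 28.3 CPM in cat2-2 gox2 after high light, against 115, 122 and 152 CPM under high CO2. The other line, cat2-2 gox1, had 26.04, 10.6 and 11.8 CPM after high light and 118, 122 and 116 CPM under high CO2. The high-CO2 libraries of XTH31 were close to each other, and its log2 fold changes were -2.16 ± 0.31 (SE, adjusted p = 0.000133) in cat2-2 gox2 and -2.88 ± 0.32 (SE, adjusted p = 3.01e-05) in cat2-2 gox1.

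XTH32 (AT2G36870), the closest relative of XTH31 in the family, was at 9.17, 14.8 and 9.9 CPM in cat2-2 gox2 after high light, against 66.7, 70.5 and 57.8 CPM under high CO2. For cat2-2 gox1 the levels were 17.3, 7.33 and 15.2 CPM after high light and 66.5, 74.6 and 45.4 CPM under high CO2. Its groups were also apart, with log2 fold changes of -2.52 ± 0.31 (SE, adjusted p = 4.5e-05) in cat2-2 gox2 and -2.22 ± 0.31 (SE, adjusted p = 0.000139) in cat2-2 gox1. XTH7 (AT4G37800), with EXPA1 one of the most abundant members under high CO2, was at 34.1, 82.8 and 37.5 CPM in cat2-2 gox2 after high light, against 183, 272 and 85.9 CPM under high CO2. In cat2-2 gox1 it was at 62.8, 61.3 and 32.2 CPM after high light and 215, 306 and 67.5 CPM under high CO2. Its groups came close to each other through a low replicate 3 under high CO2, and its log2 fold changes were -1.81 ± 0.58 (SE, adjusted p = 0.0192) in cat2-2 gox2 and -1.91 ± 0.58 (SE, adjusted p = 0.0166) in cat2-2 gox1.

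The XTH7 call was lost in cat2-2 gox2 without high CO2 replicate 2 at -1.39 (adjusted p = 0.0792), without high light replicate 1 at -1.58 (adjusted p = 0.0743) and without high light replicate 3 at -1.63 (adjusted p = 0.0717). In cat2-2 gox1 it was lost without high CO2 replicate 2 at -1.44 (adjusted p = 0.07) and without high light replicate 3 at -1.66 (adjusted p = 0.0639). XTH33 (AT1G10550), whose protein is predicted to sit in a membrane, was at 0.102, 0.0479 and 0.162 CPM in cat2-2 gox2 after high light, against 1.47, 1.62 and 0.393 CPM under high CO2. In cat2-2 gox1 it was at 0.0859, 0.184 and 0 CPM after high light and 1.4, 2.68 and 0.238 CPM under high CO2, and the library at 0 allows a level of up to 0.126 CPM, that of 3 counts. The groups did not overlap, and XTH33 fell at -3.37 ± 1.00 (SE, adjusted p = 0.0137) in cat2-2 gox2 and -3.93 ± 1.00 (SE, adjusted p = 0.00693) in cat2-2 gox1. Its cat2-2 gox2 value was -3.05 (adjusted p = 0.0469) without the library labelled high light replicate 2 and -4.18 (adjusted p = 0.000658) from repeats 1 and 2, and its cat2-2 gox1 value ran from -4.88 without high light replicate 2 to -3.09 without high CO2 replicate 2. Its counts were few, with 7 over the 3 cat2-2 gox2 libraries after high light against 69 under high CO2, and 6 in cat2-2 gox1 after high light against 91 under high CO2.

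XTH5 and XTH8 fell in both lines, by log2 fold changes between -1.12 and -1.91. XTH9 (AT4G03210), known from growing stems, fell at a log2 fold change of -1.37 ± 0.29 (SE, adjusted p = 0.00176) in cat2-2 gox2 and -0.75 ± 0.28 (SE, adjusted p = 0.0439) in cat2-2 gox1. The cat2-2 gox1 call for XTH9 was lost in 9 of the 12 fits that left out 1 library, all but those without cat2-2 gox1 high CO2 replicate 3, cat2-2 gox2 high CO2 replicate 1 or cat2-2 gox2 high CO2 replicate 3, with log2 fold changes of -0.76 to -0.58 and adjusted p-values of 0.0505 to 0.154. XTH17 (AT1G65310) fell in cat2-2 gox1 at -1.68 ± 0.60 (SE, adjusted p = 0.0355) and was at -0.44 ± 0.64 (SE, adjusted p = 0.576) in cat2-2 gox2, or -1.05 (adjusted p = 0.242) without the library labelled high light replicate 2. Its call was lost without any of 5 of the 6 cat2-2 gox1 libraries, the exception being high CO2 replicate 3, with adjusted p-values of 0.0677 to 0.167. XTH4, XTH15, XTH16 and XTH28 passed the test in neither line. With the block, XTH4 was at -0.85 (adjusted p = 0.0312) in cat2-2 gox2 and -0.96 (adjusted p = 0.0199) in cat2-2 gox1, and from repeats 1 and 2 at -1.11 (adjusted p = 0.019) and -1.24 (adjusted p = 0.0123).

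The FLA genes lay on 1 side of 0, over a narrower range than the expansins or the XTH genes. All 10 had a negative log2 fold change in both lines, from -2.01 to -0.67 in cat2-2 gox2 and from -2.05 to -0.96 in cat2-2 gox1. FLA8 (AT2G45470), the most abundant of them per kilobase under high CO2 but below FLA2 after high light, was at 38.6, 58.3 and 33.7 CPM in cat2-2 gox2 after high light, against 177, 154 and 89.2 CPM under high CO2. It was at 61.1, 33.6 and 35.05 CPM in cat2-2 gox1 after high light, against 159, 151 and 73.5 CPM under high CO2. Its groups did not overlap, replicate 3 was the lowest under high CO2, and the log2 fold changes were -1.68 ± 0.37 (SE, adjusted p = 0.00238) in cat2-2 gox2 and -1.56 ± 0.37 (SE, adjusted p = 0.00432) in cat2-2 gox1. FLA2 (AT4G12730) was at 59.9, 89.8 and 58.8 CPM in cat2-2 gox2 after high light, against 128, 124 and 80.8 CPM under high CO2. The cat2-2 gox1 libraries gave 60.9, 46.2 and 45.5 CPM after high light and 119, 115 and 62.96 CPM under high CO2.

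FLA2 fell in cat2-2 gox1, at -0.96 ± 0.27 (SE, adjusted p = 0.0122) with groups apart, and was at -0.67 ± 0.27 (SE, adjusted p = 0.0527) in cat2-2 gox2, where the library labelled replicate 2 of the high-light group overlapped the high-CO2 libraries. Without that library the cat2-2 gox2 value was -0.90 (adjusted p = 0.0247), and with the replicate block it was -0.65 (adjusted p = 0.0124), and from repeats 1 and 2 -0.65 (adjusted p = 0.0282). FLA17 (AT5G06390) had the smallest SE of the set and was at 25.7, 27.9 and 25.2 CPM in cat2-2 gox2 after high light, against 59.1, 60.8 and 60.8 CPM under high CO2. Its cat2-2 gox1 levels were 29.6, 21.8 and 27.7 CPM after high light and 58.3, 57.8 and 47.4 CPM under high CO2. The 2 conditions were clearly apart, with log2 fold changes of -1.20 ± 0.13 (SE, adjusted p = 1.52e-05) in cat2-2 gox2 and -1.04 ± 0.13 (SE, adjusted p = 5.72e-05) in cat2-2 gox1.

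FLA1 (AT5G55730), studied for its part in shoot regeneration, was at 10.9, 14.3 and 11.97 CPM in cat2-2 gox2 after high light, against 45.9, 40.96 and 30.1 CPM under high CO2. The other line, cat2-2 gox1, had 15.3, 5.81 and 9.02 CPM after high light and 43.5, 40.4 and 28.9 CPM under high CO2. Its groups were apart, with log2 fold changes of -1.65 ± 0.30 (SE, adjusted p = 0.000774) in cat2-2 gox2 and -1.90 ± 0.31 (SE, adjusted p = 0.000403) in cat2-2 gox1. FLA16 (AT2G35860) was at 1.38, 1.82 and 1.01 CPM in cat2-2 gox2 after high light, against 4.47, 6.64 and 5.84 CPM under high CO2. For cat2-2 gox1 the levels were 1.46, 0.922 and 1.77 CPM after high light and 4.04, 4.06 and 4.21 CPM under high CO2. It showed the largest fall of the family in cat2-2 gox2, at -2.01 ± 0.27 (SE, adjusted p = 7.83e-05), against -1.56 ± 0.27 (SE, adjusted p = 0.000586) in cat2-2 gox1. An exon of AT2G35859 overlaps FLA16 on the opposite strand, and the strand setting used in counting is not stated in the labels, so reads of that gene may be part of these levels.

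FLA9 (AT1G03870) was at 7.94, 14.3 and 8.89 CPM in cat2-2 gox2 after high light, against 45.8, 40.1 and 12.2 CPM under high CO2. In cat2-2 gox1 it was at 5.42, 11.3 and 8.76 CPM after high light and 45.2, 48.8 and 11.6 CPM under high CO2. Replicate 3 under high CO2 was several-fold below replicates 1 and 2 in both lines, and in cat2-2 gox2 it lay within the high-light range. The log2 fold changes were -1.65 ± 0.57 (SE, adjusted p = 0.0276) in cat2-2 gox2 and -2.05 ± 0.58 (SE, adjusted p = 0.0117) in cat2-2 gox1. The cat2-2 gox2 call was lost without high CO2 replicate 1 at -1.34 (adjusted p = 0.0959) or replicate 2 at -1.48 (adjusted p = 0.0769), and without high light replicate 1 at -1.50 (adjusted p = 0.0917) or replicate 3 at -1.55 (adjusted p = 0.0855). FLA7, FLA13 and FLA18 fell in both lines, by log2 fold changes between -1.14 and -1.52. FLA10, at most 15 counts in any library, passed the test in neither line.

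**Figure D3:**
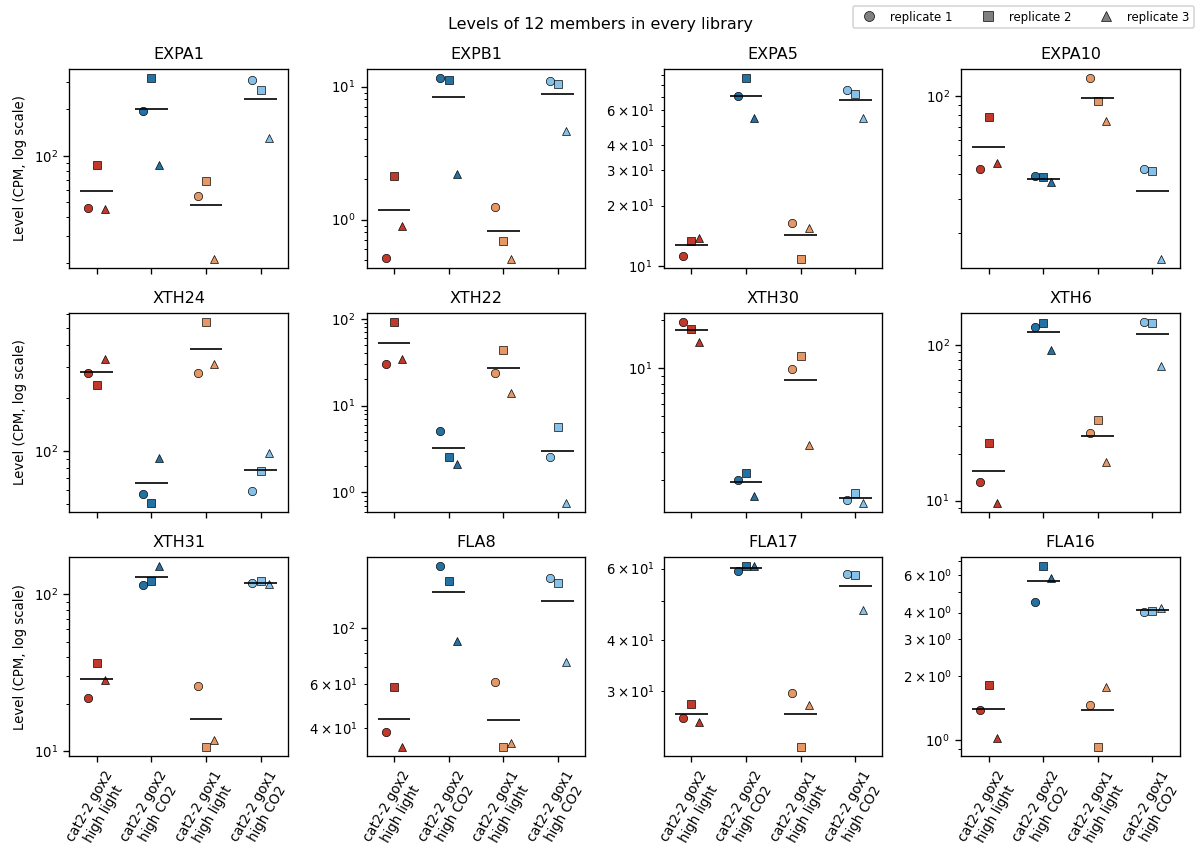
CPM (log scale) of 12 members in every library, in 4 groups, with symbols for the replicate number and lines for the group mean. EXPA10, XTH24, XTH22 and XTH30 sit higher after high light than under high CO2 in both lines, and the other 8 members sit lower on average. FLA17 shows the smallest spread within groups except in cat2-2 gox1 under high CO2, where FLA16, XTH30 and XTH31 spread less.

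The light responses of the lines were then set side by side. Over the 44 tested members, the log2 fold changes of the 2 lines, which come from separate libraries of the same repeats, gave Pearson's r of 0.948 and Spearman's rho of 0.871, and 43 of 44 had the same sign, EXPA16 being the exception. These values include EXPA14, XTH15, XTH17, XTH18, XTH33 and FLA10, which entered the test through the condition in which they were higher. For those members a shared sign was partly set by the filter, and the values without them were not computed. Over all 18967 genes tested, Pearson's r was 0.932 and Spearman's rho was 0.919, the latter above that of the members. The same sign in both lines was found for 16905 of the 18967 genes. The difference of the 2 light responses, cat2-2 gox2 minus cat2-2 gox1, passed the test for 0 of 44 members, where 1.04% of all genes passed. At an unadjusted p under 0.05 there was 1 member, EXPA4, at 0.68 ± 0.24 (SE, adjusted p = 0.285), where 10.1% of all genes passed that cutoff. DESeq2 called 0 members, where it called 532 of 18527 genes. Intervals stay wide, with an SE of the difference from 0.18 for FLA17 to 1.63 for XTH33.

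Under high CO2, cat2-2 gox2 and cat2-2 gox1 differed for 0 of the 44 tested members, where 0.0158% of all genes were called. None had an unadjusted p under 0.05, where 2.69% of all genes did. DESeq2 called 0 members, where it called 5 of 24612 genes. The log2 differences ran from -0.99 for XTH17 to 0.48 for FLA10.

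After high light, 2 members were higher in cat2-2 gox2 than in cat2-2 gox1 and 0 were lower, where 5.27% of all genes were higher and 1.28% lower. Both were expansins, EXPA4 and EXPA9, and both also fell within each line. EXPA4 (AT2G39700) after high light was at 24.4, 29.1 and 21.02 CPM in cat2-2 gox2, against 15.9, 10.8 and 12.5 CPM in cat2-2 gox1. Under high CO2 it was at 42.4, 47.8 and 53.2 CPM in cat2-2 gox2, against 40, 35.8 and 45.5 CPM in cat2-2 gox1. The high-light libraries of the lines did not overlap, those under high CO2 did, and both lines were lower after high light than under high CO2. The log2 difference after high light was 0.93 ± 0.17 (SE, adjusted p = 0.00782), and the call held without each of the 12 libraries, at 0.80 (adjusted p = 0.0347) without the library labelled cat2-2 gox2 high light replicate 2. Its light response was -0.95 ± 0.17 (SE, adjusted p = 0.000614) in cat2-2 gox2 and -1.63 ± 0.17 (SE, adjusted p = 2.12e-05) in cat2-2 gox1.

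EXPA9 (AT5G02260) after high light was at 6.66, 7.42 and 6.005 CPM in cat2-2 gox2, against 4.51, 3.09 and 3.45 CPM in cat2-2 gox1. Under high CO2 it was at 7.94, 8.998 and 12.7 CPM in cat2-2 gox2, against 8.12, 6.42 and 8.14 CPM in cat2-2 gox1. The lines were apart after high light, with a log2 difference of 0.86 ± 0.21 (SE, adjusted p = 0.0322), and overlapped under high CO2. That call did not hold without replicate 1 of cat2-2 gox2 after high light at 0.86 (adjusted p = 0.0789), replicate 2 at 0.78 (adjusted p = 0.112) or replicate 3 at 0.93 (adjusted p = 0.0604), and without cat2-2 gox1 high light replicate 2 at 0.75 (adjusted p = 0.097) or replicate 3 at 0.81 (adjusted p = 0.118), nor from repeats 1 and 2 at 0.91 (adjusted p = 0.0551). Its light response was -0.56 ± 0.20 (SE, adjusted p = 0.0327) in cat2-2 gox2 and -1.03 ± 0.21 (SE, adjusted p = 0.00171) in cat2-2 gox1. The cat2-2 gox2 response of EXPA9 was not called in 7 of 19 alternatives. From repeats 1 and 2 it was -0.17 (adjusted p = 0.517), with DESeq2 -0.51 (adjusted p = 0.0553), with DESeq2 size factors -0.51 (adjusted p = 0.0559) and in a fit of that line's groups only -0.54 (adjusted p = 0.0546). It did not pass without high CO2 replicate 3 at -0.34 (adjusted p = 0.145), high light replicate 1 at -0.56 (adjusted p = 0.0773) or high light replicate 3 at -0.49 (adjusted p = 0.108).

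The count between the lines depended on how the repeats were handled. After high light, 1725 of all 18967 genes were called in either direction with the block, against 1243 without it. With the replicate number as a block, 4 members were higher in cat2-2 gox2 after high light and 1 was lower: EXPA4 at 0.93 (adjusted p = 0.0113), EXPA9 at 0.87 (adjusted p = 0.0325), EXPA16 at 1.64 (adjusted p = 0.0255) and XTH30 at 1.15 (adjusted p = 0.0242), and XTH6 at -0.78 (adjusted p = 0.0176). Without the block the last 3 were at 1.60 ± 0.47 (SE, adjusted p = 0.0688) for EXPA16, 1.04 ± 0.34 (SE, adjusted p = 0.107) for XTH30 and -0.75 ± 0.36 (SE, adjusted p = 0.276) for XTH6. From repeats 1 and 2, XTH30 passed at 0.79 (adjusted p = 0.0209), while EXPA16 at 1.76 (adjusted p = 0.0573) and XTH6 at -0.68 (adjusted p = 0.183) did not. XTH30 libraries of the lines did not overlap after high light, whereas those of EXPA16 and XTH6 did. EXPA16 after high light was at 11.2, 13.7 and 4.5 CPM in cat2-2 gox2, against 5.5, 1.94 and 2.23 CPM in cat2-2 gox1. Left-out libraries also moved the count, to 4 without cat2-2 gox1 high light replicate 1 and to 1 without cat2-2 gox1 high light replicate 2 or 3 or cat2-2 gox2 high light replicate 1 or 2. Of all genes, 757 of 19146 were called in either direction in the first of these fits, and 721 to 1098 in the others.

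**Figure D4:**
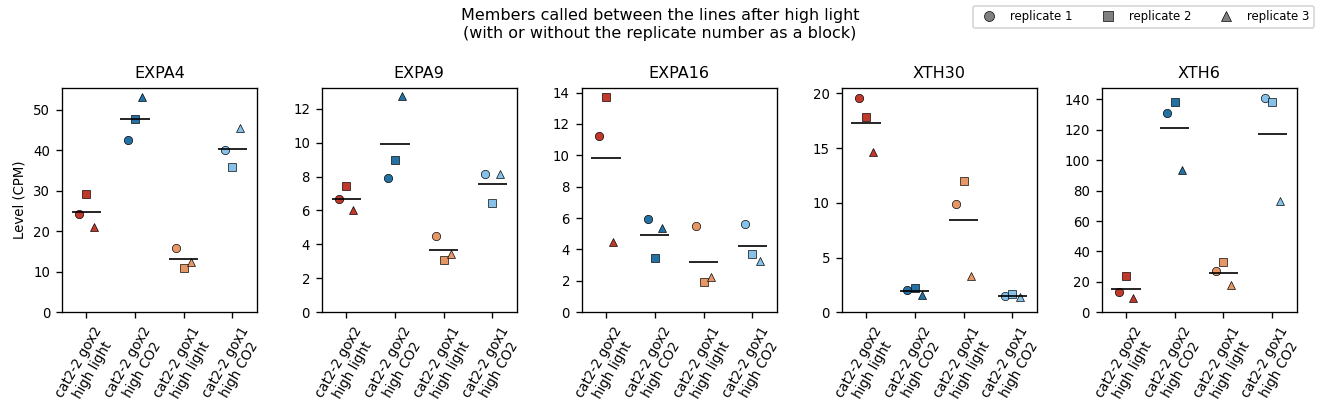
CPM of 5 members in every library, in 4 groups, with symbols for the replicate number and lines for the group mean; the axes start at 0. EXPA4, EXPA9 and XTH30 are higher in all cat2-2 gox2 high-light libraries than in all cat2-2 gox1 high-light libraries, whereas EXPA16 and XTH6 overlap between the lines.

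The replicate number left its own pattern on the set. Under high CO2, the log2 difference of replicate 3 from the mean of replicates 1 and 2 had a median over the 44 members of -0.55 in cat2-2 gox2 and -0.78 in cat2-2 gox1, against -0.01 and 0.00 over all genes. In both lines at once it was the lowest library for 32 of 44 members, against 34.1% of all genes. The mesophyll markers were lowest in the same libraries, at 50676 CPM in cat2-2 gox2 and 45519 CPM in cat2-2 gox1. Among the members that did not follow were EXPA4, EXPA9 and EXPB3, whose replicate 3 was the highest library under high CO2 in both lines. Leaving replicate 3 out gave the counts from repeats 1 and 2 above. Such counts also change with the number of libraries, so the part of this pattern in the light responses was not tested separately.

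**Figure D5:**
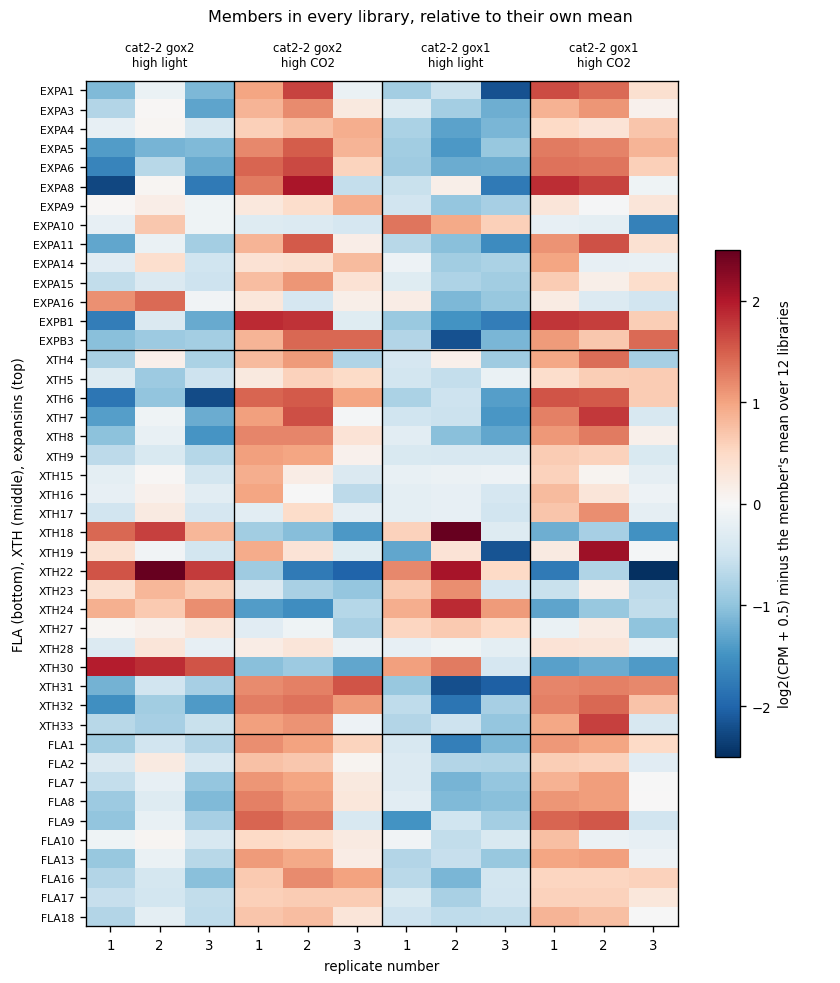
Each row is a tested member and each column a library; colour gives log2(CPM + 0.5) minus the member's mean over the 12 libraries, red above and blue below. The high-CO2 columns are red for most expansin and FLA rows, replicate 3 under high CO2 is paler than replicates 1 and 2 for most rows, and XTH18, XTH22, XTH24 and XTH30 show the opposite colours.

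Other wall genes were read from lists of family members outside the set and of synthesis genes, beside the 29.2% of all genes that fell and 27.7% that rose in cat2-2 gox2 and the 26.5% and 25.6% in cat2-2 gox1. Of 9 genes of cellulose synthesis in the primary wall, 8 fell in each line. CESA5 fell at a log2 fold change of -1.56 ± 0.18 (SE, adjusted p = 2.87e-05) in cat2-2 gox2 and -1.28 ± 0.18 (SE, adjusted p = 0.000159) in cat2-2 gox1, and CESA2, another cellulose synthase subunit, at -1.24 ± 0.11 (SE, adjusted p = 3.55e-06) and -1.07 ± 0.11 (SE, adjusted p = 1.58e-05). Of 14 tested genes of xyloglucan synthesis and trimming, 9 fell and 2 rose in cat2-2 gox2, and 6 fell and 1 rose in cat2-2 gox1. XXT3, of the family that adds xylose to the glucan backbone, fell at -1.67 ± 0.27 (SE, adjusted p = 0.000317) in cat2-2 gox2 and -2.17 ± 0.28 (SE, adjusted p = 8.77e-05) in cat2-2 gox1, and CSLC8, of the family that makes that backbone, at -1.68 ± 0.29 (SE, adjusted p = 0.00046) and -1.43 ± 0.28 (SE, adjusted p = 0.00143). XXT1 rose in cat2-2 gox2, at 1.47 ± 0.31 (SE, adjusted p = 0.00174), and BGAL10, a galactosidase that trims xyloglucan, rose at 0.89 ± 0.29 (SE, adjusted p = 0.0209) in cat2-2 gox2 and 0.95 ± 0.29 (SE, adjusted p = 0.0162) in cat2-2 gox1.

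Of 7 tested genes of pectin synthesis and modification, 4 fell in each line, among them QUA2, a pectin methyltransferase, at -1.06 ± 0.10 (SE, adjusted p = 6.53e-06) in cat2-2 gox2 and -0.70 ± 0.10 (SE, adjusted p = 0.000174) in cat2-2 gox1. Expansins outside the set had 5 tested genes, of which 4 fell in cat2-2 gox2 and 2 in cat2-2 gox1, with EXLA2 at log2 fold changes of -1.62 ± 0.36 (SE, adjusted p = 0.00249) and -1.74 ± 0.36 (SE, adjusted p = 0.00187). XTH29 was 1 of 2 further XTH genes tested and rose at 5.31 ± 0.85 (SE, adjusted p = 0.000309) in cat2-2 gox2 and 4.0 ± 0.78 (SE, adjusted p = 0.00136) in cat2-2 gox1. FLA4, FLA12 and FLA15, 3 of 5 further FLA genes tested, fell in both lines, by log2 fold changes between -1.26 and -1.83, and AT1G15190, of the same list, rose in cat2-2 gox2 at 1.89 ± 0.50 (SE, adjusted p = 0.00748).

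Markers of leaf cell types moved beside the set. All 5 mesophyll markers fell in both lines, and their summed mean after high light was 44.6% of that under high CO2 in cat2-2 gox2 and 47.0% in cat2-2 gox1. Epidermal markers fell for 4 of 4 genes in cat2-2 gox2, with sums of 153 to 177 CPM after high light against 247 to 372 CPM under high CO2, and for 3 of 4 in cat2-2 gox1, with 214 to 229 CPM against 279 to 379 CPM. Of 5 guard cell markers, 3 fell and 1, KAT1, rose in each line, and their sums were 53.1 to 72.8 CPM in cat2-2 gox2 after high light against 52.7 to 62.3 CPM under high CO2 and 57 to 61.6 CPM in cat2-2 gox1 after high light against 54.9 to 59.9 CPM under high CO2. Of the 3 xylem wall markers, 2 fell in cat2-2 gox2 and 3 in cat2-2 gox1, with sums of 14.4 to 18.1 CPM in cat2-2 gox2 after high light against 23.5 to 23.99 CPM under high CO2. In cat2-2 gox1 the xylem sums were 13.6 to 15.8 CPM after high light against 19.1 to 25.4 CPM under high CO2. None of the 4 markers of dividing cells passed the test in either line, and the meristem genes STM and KNAT1 had 12 and 8 counts over all libraries. KNAT6, the other meristem gene, had 118 and fell in cat2-2 gox1, at -2.26 ± 0.77 (SE, adjusted p = 0.0293). The part of these shifts in the fall of expansin, FLA and XTH genes was not tested.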

How the data were processed

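RNA of 12 leaf libraries, 3 in each of 4 groups, was sequenced. Per the submitters' processing notes, the authors used Trim Galore 0.3.3, TopHat2 2.1.0, featureCounts of Subread 1.4.6 and the TAIR10 genome; the deposited values are raw counts of reads per gene. How strand and multiply aligned reads were treated in counting is not given in the sources used here. The table also has 2 entries that name no gene, which were left out.

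From these counts, genes with at least 10 counts in enough libraries and 15 in all (edgeR's filterByExpr, 18967 genes) were scaled by TMM and fitted in R 4.3.3 with edgeR 4.0.16, 1 mean per group over the 12 libraries, using the quasi-likelihood test and Benjamini-Hochberg adjustment over all genes tested, with a threshold of 0.05. The biological coefficient of variation was 0.211. An SE is the log2 fold change divided by the root of its F statistic. The code of the fit was also run on simulated counts with a constant spread and no effect of the repeat. That run does not measure how the tests perform on these data. CPM per kilobase uses the exon length of the RefSeq annotation of TAIR10.1, which also gave names, neighbours and promoters; the promoter of 1 member that rose is not reported here.

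Replicate numbers were taken to pair the libraries, since the labels describe each repeat as a new run of the whole experiment; same-numbered libraries deviated together with correlations of -0.298 to 0.819, above 0.1 for 13 of 18 pairs. The main fit did not use that pairing. A fit with the replicate number as a block was an alternative, as were DESeq2 1.42.0, its size factors, other filters, fits of the compared groups only, repeats 1 and 2 only, and leaving out each library.

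The members, the lists of other wall genes and the markers were chosen with earlier results of these data known. Named with all libraries are, per family and light comparison, the 3 largest rises and falls that passed, members that passed between the lines, and the 2 most abundant per kilobase. FLA17, EXPA16, EXPA8 and the members whose calls moved with the block or a left-out library were added after their values were seen, as were the members drawn in the plots beyond that rule.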

Additional observations from a re-analysis of the deposited data

How the results depend on the processing

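Of 69 calls of single members, 69 kept their direction and side of the threshold with the replicate block, 68 of 69 with DESeq2, 67 of 69 with DESeq2 size factors and 67 of 69 from repeats 1 and 2 alone; no alternative reversed a member. Fits of the compared groups only kept 62 of 66 calls, and leaving out 1 library kept 61 to 68 of 69. The fewest, 61, were kept without cat2-2 gox2 high light replicate 1 or replicate 3. The block added calls that are given beside their genes and changed no other call. Members higher in cat2-2 gox2 than in cat2-2 gox1 after high light numbered 2, against 4 with the replicate block and 1 to 4 when a library was left out. Members lower there numbered 0, against 1 with the block. All-gene calls there, in either direction, were 1243 of 18967, against 1725 with the block and 721 to 1624 when a library was left out. The log2 ratio of the XTH sums in cat2-2 gox1 reversed to 0.07 without cat2-2 gox1 high CO2 replicate 2, within a range of -0.40 to 0.07 over left-out libraries; the cause was not tested. Leaving out 1 library gave 5 to 6 members that rose and 22 to 29 that fell in cat2-2 gox2, and 5 to 7 and 25 to 33 in cat2-2 gox1. Over the same fits, 9282 to 11467 of all genes were called in either direction in cat2-2 gox2 and 8203 to 10739 in cat2-2 gox1. Scaling by total counts moved the median log2 fold change of all genes by 0.10 in the cat2-2 gox1 light comparison and by -0.10 between the lines after high light. A fit of the compared groups only cannot give the difference of the light responses. Depth limits XTH33, XTH18, XTH15, XTH17, EXPA14 and FLA10, which had under 0.471 CPM in most libraries of 1 condition.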
